A study of Mus musculus with 3 samples.

Results

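The genes described are the solute carriers, taken as all array probes whose gene symbol begins with Slc and a family number, without the mitochondrial Slc25 family and without Slc16a7. The symbols gave 257 probes for 257 genes, 1 probe a gene, out of 23473 probes on the array. Of these, 221 probes from 41 families had a value on all 3 arrays and were kept, and 164 of the 221 were bright enough to be compared. The other 57 were dim, and 36 probes were left out because at least 1 array gave no value.

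The study measured RNA from 3 lines of mouse OP9 cells, a stromal cell line from the calvaria of newborn mice with the Csf1op mutation (B6C3Fe-a/a-Csf1op/Csf1op), so all 3 lines carry that mutation. OP9 was the parental line, named as the control, OP9-GFP expressed green fluorescent protein, and OP9-DL expressed GFP and the Notch ligand Delta-like 1. All were grown in aMEM with serum and received no treatment. The sources used here name neither the promoter behind GFP and Delta-like 1 nor whether a line was 1 clone. Each line was measured on 1 array, so every difference below is a difference between arrays, without replicate error and without a test. The number of arrays, 3, limits the precision. Values are the authors' scaled intensities, with a median of 20 on each array, and a probe counted as compared when its mean log2 intensity reached the 25th percentile of all probes, an intensity of 6.13. Where 3 readings of a gene follow each other without further words, they are those of OP9, OP9-GFP and OP9-DL in that order.

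Whole-array checks were as follows. Dll1, which encodes Delta-like 1, read 14.0 in OP9, 20.5 in OP9-GFP and 333.3 in OP9-DL. Of 8 mesenchymal stroma markers, Vim, Fn1 and Col1a2 read 5145.3 or more on every array, and Thy1 was below 6.13 on every array. Other markers of that list differed between the lines: Pdgfra read 800.6, 166.1 and 127.1, Col3a1 read 660.5, 936.4 and 195.9, and Col1a1 read 269.3, 712.9 and 557.0. Their part in the carriers' readings was not tested. Of 10 blood and mast cell markers the summed intensity was 105.8, 110.0 and 1025.9, and in OP9-DL Tpsab1 (818.9) and Cd48 (114.4) made up most of it, with Ptprc at 2.8 and Kit blank. The sums ran from 24.8 to 33.6 for 5 endothelial markers and from 44.2 to 53.0 for the 3 epithelial markers present on the array.

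Solute carriers are membrane proteins that move small molecules across membranes, either down a gradient or coupled to the movement of sodium, protons or chloride. They supply a cell with sugars, amino acids, vitamins, nucleosides, phosphate and metals, and they set its pH and volume. Family numbers follow sequence, not substrate, so carriers of 1 substrate are spread over several families. Some heteromeric amino acid carriers need a partner: the heavy chain Slc3a2 (CD98) brings light chains such as Slc7a5 to the surface. Not every member sits in the plasma membrane. By a location assigned to each gene from its known place in the cell, 113 of the 164 compared probes belong mainly there. The other 51 were placed inside the cell, such as the Slc35 family of the Golgi and endoplasmic reticulum and many zinc carriers. Among the compared genes, 4 carry nothing themselves: Slc9a3r1 and Slc9a3r2 (NHERF scaffolds), Slc4a1ap and Slc7a6os. The scaffolds were counted with the plasma membrane, and Slc4a1ap and Slc7a6os inside the cell.

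Amino acid carriers are known to be under the control of ATF4, the transcription factor of amino acid shortage, and of NRF2, the factor of oxidative stress. Promoter windows of 250 bases before to 50 after a RefSeq start site (GRCm38.p6) were found for 174 of the 221 kept genes. The letters TGATGNAA, of the ATF4 composite element, were searched on both strands and stood in 7 of 237 promoters of kept members (2.95%) against 3.97% of all promoters in the table. TGACNNNGC, the core of the antioxidant response element bound by NRF2, stood in 37 (15.6%) against 12.4% of all. Neither motif overlapped the other in the windows shown. Of the 44 promoters of members that differed by 2-fold or more in some comparison, 0 held TGATGNAA and 6 held TGACNNNGC. The windows of 3 carriers are shown, 5′ to 3′ on the gene's strand with the matched letters in capitals, because the readings of these carriers are set beside ATF4 and NRF2 related genes where amino acids and phosphate are described. The Slc7a11 window (chr3:50443564-50443863, minus strand) holds TGATGNAA once on each strand, beginning 66 and 47 bases before the start. The Slc6a9 window (chr4:117849100-117849399, plus strand) and the Slc20a1 window (chr2:129206846-129207145, plus strand) hold TGACNNNGC, beginning 46 and 165 bases before it.
Slc7a11: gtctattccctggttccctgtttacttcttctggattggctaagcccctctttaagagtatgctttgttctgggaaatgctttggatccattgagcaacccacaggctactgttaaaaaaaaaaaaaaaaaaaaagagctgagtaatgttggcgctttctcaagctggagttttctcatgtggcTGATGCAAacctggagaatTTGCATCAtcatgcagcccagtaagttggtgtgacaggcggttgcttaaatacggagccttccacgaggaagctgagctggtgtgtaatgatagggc
Slc6a9: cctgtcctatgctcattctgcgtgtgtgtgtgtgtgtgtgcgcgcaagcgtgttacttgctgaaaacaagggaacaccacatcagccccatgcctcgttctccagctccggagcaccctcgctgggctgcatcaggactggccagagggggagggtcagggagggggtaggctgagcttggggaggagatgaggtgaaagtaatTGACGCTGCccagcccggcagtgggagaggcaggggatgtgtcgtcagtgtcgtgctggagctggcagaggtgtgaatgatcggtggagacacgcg
Slc20a1: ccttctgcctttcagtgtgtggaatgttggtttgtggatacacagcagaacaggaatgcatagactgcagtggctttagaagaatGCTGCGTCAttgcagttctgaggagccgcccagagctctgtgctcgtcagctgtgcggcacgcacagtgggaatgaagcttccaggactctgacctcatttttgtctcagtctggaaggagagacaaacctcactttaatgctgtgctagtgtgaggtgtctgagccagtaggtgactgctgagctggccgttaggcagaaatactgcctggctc

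Between the cells with Delta-like 1 and those with GFP alone, which by the labels differ in Delta-like 1, a small share of carriers differed. In OP9-DL 6 of the 164 carriers were at least 2-fold higher than in OP9-GFP, 3.66% of them, while 2.31% of all 15581 compared probes were. A further 7 were at least 2-fold lower, 4.27%, while 2.72% of all probes were. The higher ones were Slc22a18, Slc7a2, Slc16a9, Slc6a9, Slc19a2 and Slc38a4, and the lower ones Slc1a6, Slc11a1, Slc38a1, Slc34a2, Slc9a3r1, Slc2a1 and Slc22a21. All lay in the plasma membrane families apart from Slc11a1. The median log2 difference was -0.08 over the carriers and -0.01 over all probes, and the quartiles of the carriers were -0.35 and 0.23.

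The second comparison set OP9-GFP against OP9, which differ by GFP according to the labels. Here 11 carriers (6.71%) were at least 2-fold higher and 12 (7.32%) at least 2-fold lower on the OP9-GFP array, beside 4.86% and 6.75% of all compared probes. The third comparison, OP9-DL against OP9, shares an array with each of the others and had 11 carriers higher (6.71%) and 8 lower (4.88%), beside 4.31% and 6.91%. In all, 39 carriers (23.8%) differed by 2-fold or more in some comparison, beside 17.6% of all probes, and 86 (52.4%) stayed within 1.5-fold over the 3 arrays, beside 56.4%. These shares are near the background, so the carriers as a whole did not stand apart on these arrays. Of the 39, 10 had a reading below 6.13 on some array, where a direction can be read but no firm fold.

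**Figure D1:**
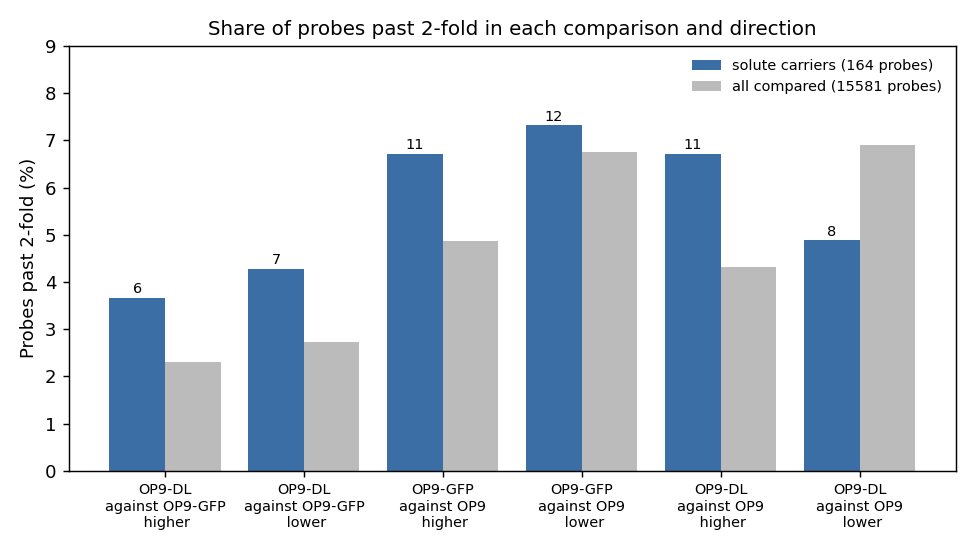
The bars give the percent of solute carriers (blue, 164 probes) and of all compared probes (grey, 15581 probes) at least 2-fold higher or lower in each comparison, with the number of carriers above each blue bar. The blue bars run from 3.66% to 7.32%, and only in OP9-DL against OP9, lower, does the blue bar (4.88%) stand below the grey one (6.91%).

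A line stood apart from both others by 2-fold or more in 13 carriers, of which 3 did so for 2 lines at once because their readings were spread over all arrays. OP9 was above both other lines in 3 carriers, 1.83% of them beside 3.98% of all probes, and below both in 5, 3.05% beside 2.2%. OP9-GFP was above both in 2 (1.22% beside 0.789%) and below both in 2 (beside 0.879%). OP9-DL was above both in 2 (beside 0.969%) and below both in 2 (beside 1.46%). The threshold parts near values. In OP9-DL against OP9, the carriers inside it by less than 0.15 on the log2 scale were Slc3a2, Slc18a2, Slc37a3, Slc1a6, Slc30a4, Slc9a3r1, Slc22a4 and Slc30a9. Of these Slc37a3 was 2.01-fold lower. Several carriers were outside it by less than 0.15, and the closest were Slc29a2 and Slc22a21 at 1.99-fold each. The other comparisons had such near values too.

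**Figure D2:**
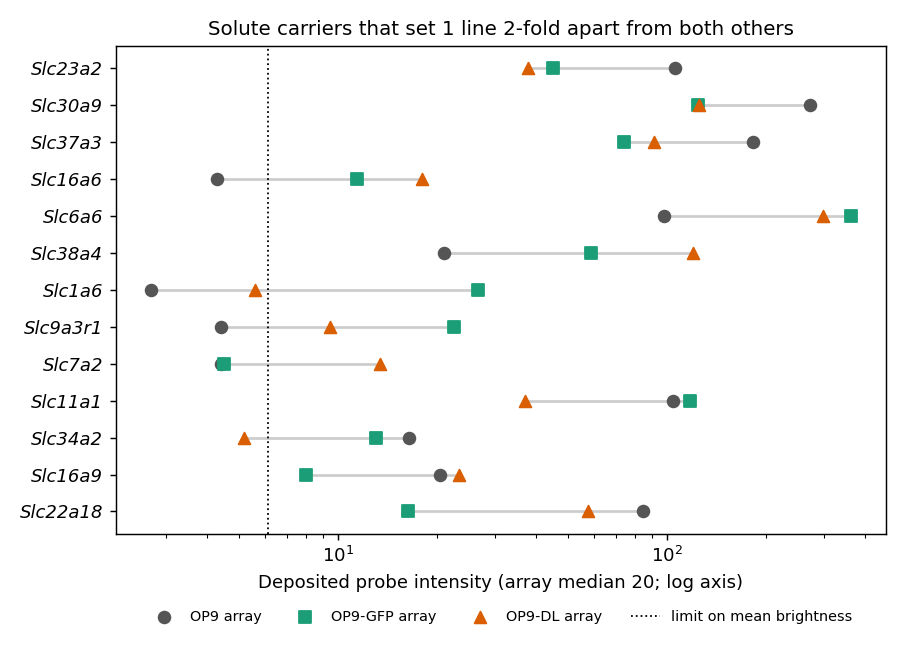
Each row is a carrier that set 1 line 2-fold or more apart from both others, and the points are its deposited intensities for OP9 (circle), OP9-GFP (square) and OP9-DL (triangle) on a log axis. The dotted line is the limit of 6.13 on mean brightness, and the OP9 readings of Slc1a6 (2.7), Slc16a6 (4.3), Slc9a3r1 (4.4) and Slc7a2 (4.4) lie to its left.

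Amino acid carriers were the largest group. Of 46 listed, 39 had values on all arrays and 23 were compared, and 8 of these differed by 2-fold or more in some comparison, which 17.6% of all probes did. Against OP9, 3 were higher and 0 lower in OP9-GFP, where 4.86% and 6.75% of all probes were. In OP9-DL 6 were higher and 0 lower, where 4.31% and 6.91% of all probes were, and the median log2 differences were 0.41 and 0.22. In OP9-DL against OP9-GFP 3 were higher and 2 lower by 2-fold or more, where 2.31% and 2.72% of all probes were. The median log2 difference of these carriers was 0.08.

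The heavy chain Slc3a2 read 442.6 in OP9, 791.5 in OP9-GFP and 885.7 in OP9-DL. Its light chain Slc7a5 (LAT1), an exchanger of large neutral amino acids, read 134.9, 248.7 and 305.3. Both chains were lower in OP9 than in the other lines: OP9-GFP was 1.79-fold above OP9 for Slc3a2 and 1.84-fold for Slc7a5, and OP9-DL was 2-fold and 2.26-fold above it. Slc3a2 lay at the threshold, and with lowess scaling its log2 difference of OP9-DL against OP9 was 0.98, below 2-fold. The readings of the other light chains were as follows. Slc7a6, an exchanger of cationic and neutral amino acids, read 71.9, 89.4 and 65.6. Slc7a7, its relative of the same transport system, read 14.3, 13.8 and 8.5, and Slc7a10, a carrier of small neutral amino acids, 24.3, 18.2 and 19.6. All 3 stayed within 2-fold. Slc7a11, which imports cystine for glutathione, read 5.1, 8.0 and 5.7, close to the brightness limit, and its promoter holds the ATF4 letters on both strands. Slc7a8 was dim (1.1, 2.3 and 2.8), and Slc7a9, the partner of Slc3a1, had no value on the OP9 array. Slc3a1 itself, the heavy chain of the kidney cystine carrier, read 7.0, 9.4 and 10.9.

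Slc38a4, a sodium-coupled carrier of small neutral amino acids, spread widest among the carriers that were above the limit on every array. It read 21.1 in OP9, 58.7 in OP9-GFP and 120.3 in OP9-DL, with OP9-GFP 2.78-fold above OP9, OP9-DL 2.05-fold above OP9-GFP and OP9-DL 5.70-fold above OP9. Its relative Slc38a2 (SNAT2), which is induced when amino acids are scarce, took the same order at 63.7, 87.9 and 106.3 but stayed within 2-fold. Slc38a1 did not: it read 9.1, 15.7 and 5.7 and was lower in OP9-DL than in OP9-GFP, with an OP9-DL reading below the limit. These 3 genes lie next to each other on chromosome 15, in the order Slc38a1, Slc38a2, Slc38a4, with no other protein-coding gene between them. Slc38a3 (33.8, 44.8 and 36.7) and Slc38a5 (15.8, 18.8 and 16.7) stayed within 1.5-fold.

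Slc6a6, the sodium- and chloride-coupled taurine carrier, read 98.0, 363.3 and 298.2, so that both lines with GFP were above OP9, by 3.71-fold and 3.04-fold. Slc6a9 (GlyT1), the glycine carrier, read 180.2, 115.2 and 323.2 and was 2.81-fold higher in OP9-DL than in OP9-GFP, with OP9 between them. Slc7a2 (CAT-2), a carrier of arginine and lysine, read 4.4, 4.5 and 13.4, the OP9-DL array alone being above the limit. Its relative Slc7a1 had no value on the OP9 array and read 3.2 and 2.3 on the others, and Slc7a3 was dim (3.5, 2.1 and 6.7). Slc1a6, a glutamate carrier best known from Purkinje cells, read 2.7, 26.7 and 5.6, and the OP9-GFP array alone was above the limit. With a constant of 2 added before log2, its log2 difference of OP9-GFP against OP9 went from 3.31 to 2.61. The glutamine carrier Slc1a5 (ASCT2; 511.6, 405.2 and 570.1) and Slc1a4 (63.9, 47.6 and 50.4) stayed within 1.5-fold.

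Genes of the amino acid response and of glutathione synthesis, chosen like the carriers with results of these arrays known, are given beside them. Of 20 listed, 16 were compared. In OP9-DL 4 were at least 2-fold higher than in OP9-GFP and 1 was lower, beside 2.31% and 2.72% of all compared probes. The median log2 difference was 0.01. Slc6a9 had its lowest reading on OP9-GFP and its highest on OP9-DL, and so had the 4 higher genes: Cth, which makes cysteine (41.6, 21.6 and 79.2), Chac1, which degrades glutathione (417.1, 141.6 and 470.5), Ddit3, the stress factor CHOP (522.1, 190.0 and 640.7), and Trib3 (31.6, 19.6 and 103.0). Slc3a2, Slc7a5, Slc38a2 and Slc38a4 had the order OP9, OP9-GFP, OP9-DL from low to high. Asns, the asparagine synthetase (1904.5, 2292.1 and 2755.3), Atf4 (1635.9, 2368.3 and 2457.1) and Shmt2, a serine and glycine enzyme (374.6, 614.9 and 850.7), had it too. Psat1, of serine synthesis, read 1387.9, 2990.5 and 2843.5. These genes were singled out by their order after the values were seen. Over all compared probes 18.8% had the order OP9, OP9-GFP, OP9-DL and 11.5% the order OP9-GFP, OP9, OP9-DL. Each was held by 4 of the 16 listed genes, and by 7 and 2 of the 23 amino acid carriers. The order OP9, OP9-DL, OP9-GFP, which Psat1 had, was held by 6 of the 16 and by 7 of the 23, beside 20.4% of all compared probes. Whether these genes and the carriers share a control was not tested.

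**Figure D3:**
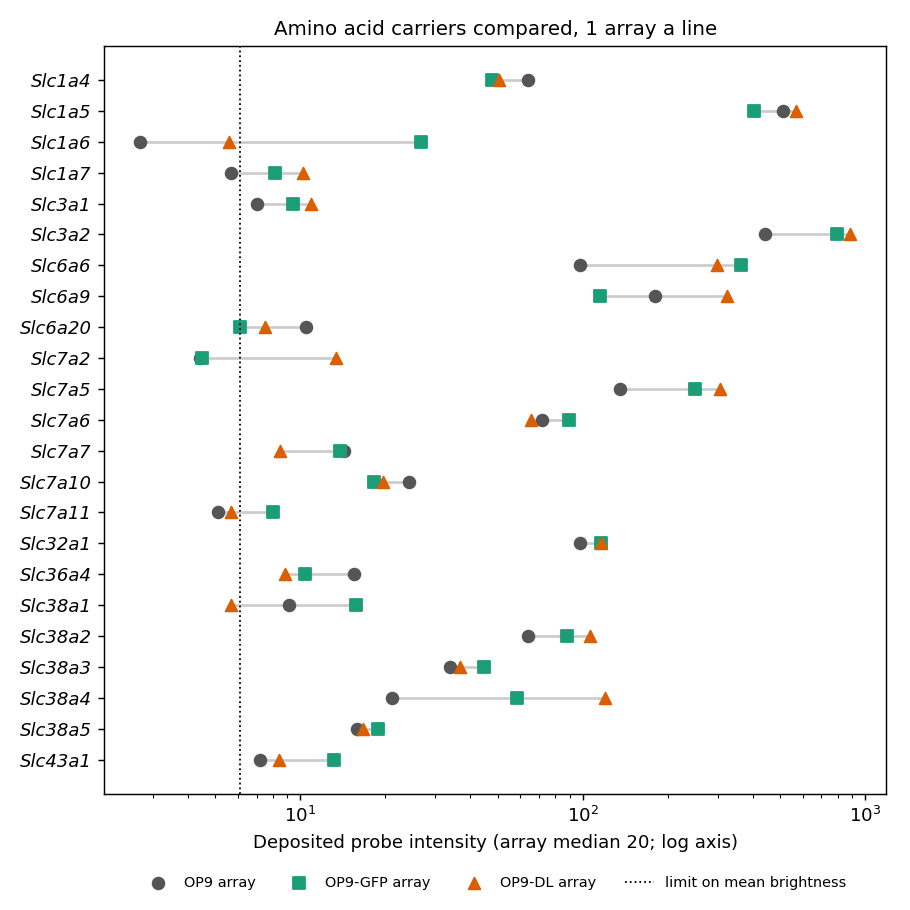
Each row is 1 of the 23 compared amino acid carriers, ordered by family, with its deposited intensity on each array on a log axis and the brightness limit of 6.13 dotted. For Slc3a2, Slc6a6, Slc7a5, Slc38a2, Slc38a4 and others the OP9 circle lies left of both other points. Each order with OP9 lowest was held by 7 of the 23, beside 18.8% (OP9-GFP next) and 20.4% (OP9-DL next) of all compared probes. A level is to be read along a row only, since probes differ in sensitivity.

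Of 18 compared sugar carriers, 12 stayed within 1.5-fold and 3 differed by 2-fold or more somewhere, near the shares of 56.4% and 17.6% over all probes. Slc2a1 (GLUT1), the basal glucose carrier, read 81.0 in OP9, 107.7 in OP9-GFP and 47.1 in OP9-DL. The last was 2.29-fold lower than OP9-GFP and 1.72-fold lower than OP9. Slc2a8 (GLUT8), which sits mostly inside cells, read 37.4, 14.3 and 21.9. Slc45a3 read 5.4, 9.5 and 12.0. Slc45a4 (64.0, 77.7 and 84.4) and Slc2a12 (41.3, 31.2 and 35.3) stayed within 1.5-fold, as did the fructose carrier Slc2a5 (19.8, 23.2 and 22.8). Slc2a3 (5.7, 4.5 and 3.2) was dim, and the insulin-responsive Slc2a4 (GLUT4) read 7.3, 7.3 and 7.1.

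Of 7 compared carriers of the monocarboxylate group, 2 differed by 2-fold or more in some comparison, beside 17.6% of all compared probes. Some carriers of this group move lactate, pyruvate and ketone bodies with protons. Slc16a6 (MCT7) read 4.3, 11.4 and 18.0, so that OP9 was below both other lines. Slc16a9 (MCT9) read 20.4, 8.0 and 23.3, so that OP9-GFP was below both, by 2.55-fold and 2.91-fold. The lactate carriers did not reach 2-fold: Slc16a1 (MCT1) read 69.8, 114.3 and 114.0, and Slc16a3 (MCT4), which exports lactate, 19.2, 17.1 and 15.6. Their partner proteins differed from each other. Bsg (basigin) read 1148.6, 884.8 and 1159.5, while Emb (embigin), the other chaperone of these carriers, read 941.1, 420.4 and 181.0, 2.24-fold lower on OP9-GFP than on OP9 and 2.32-fold lower on OP9-DL than on OP9-GFP.

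Among 16 probes for partners, pumps and regulators of carriers, 13 were compared. In OP9-DL 0 were higher and 3 lower by 2-fold or more than in OP9-GFP, beside 2.31% and 2.72% of all compared probes. The lower ones were Emb, Sgk1 and Atp1b1. Sgk1, a kinase that raises the number of several carriers at the surface, read 475.2, 1151.2 and 497.5. Atp1b1 is a beta subunit of the sodium pump that drives sodium-coupled carriers. Atp1b1 read 16.0, 82.7 and 2.3, the OP9-DL value being below the limit. Atp1b3, another beta subunit, read 1159.5, 1112.9 and 822.1 and stayed within 1.5-fold.

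Phosphate and sulfate carriers had 4 of 13 compared members past 2-fold in some comparison, beside 17.6% of all compared probes. Slc20a1 (PiT-1), a sodium-phosphate carrier of most cells, read 95.7, 233.7 and 122.8, 2.44-fold higher on OP9-GFP than on OP9. Its relative Slc20a2 read 14.1, 25.4 and 23.3 and stayed within 2-fold. Slc34a2, a phosphate carrier of epithelia, read 16.5, 13.1 and 5.2, and OP9-DL was below both others. In the Slc37 family, named for sugar phosphates, 2 of 4 compared members were at least 2-fold lower in OP9-GFP than in OP9. Over all compared probes 6.75% were. Slc37a3 read 183.7, 74.3 and 91.5, and Slc37a2 read 43.1, 16.1 and 28.3. Slc37a4, the glucose-6-phosphate carrier of the endoplasmic reticulum, read 34.7, 20.1 and 23.0. Slc20a1, whose promoter with the antioxidant letters is shown above, was highest on the OP9-GFP array. The glutathione synthesis gene Gclm (414.6, 1109.7 and 543.8) and the thioredoxin reductase Txnrd1 (1000.8, 2578.3 and 1636.1), both known NRF2 targets, were highest there. So were Gclc (128.2, 233.2 and 119.1) and, within 1.5-fold, Hmox1 (1827.4, 2053.7 and 2004.4). Nqo1, another known NRF2 target, was not: it read 160.4, 155.0 and 83.3. Control of Slc20a1 by NRF2 was not tested, and the letters stood in 12.4% of all promoters.

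Of the carriers of zinc, iron, copper and manganese 20 were compared, of which 10 stayed within 1.5-fold and 5 passed 2-fold somewhere. Over all compared probes 56.4% and 17.6% did. Slc11a1 (NRAMP1), an iron and manganese carrier known from the phagosomes of macrophages, read 104.9, 117.8 and 37.0, 3.18-fold lower on OP9-DL than on OP9-GFP and 2.84-fold lower than on OP9. Of the macrophage markers, Csf1r read 24.8, 19.9 and 20.6 and Cd68 read 29.4, 42.9 and 46.3, and both stayed within 2-fold. Fcer1g, also expressed by macrophages, read 14.1, 17.9 and 10.0, 1.79-fold lower in OP9-DL than in OP9-GFP. Ptprc and Itgam stayed at or below 3.2 on all arrays. The part of such cells in the readings of Slc11a1 was not tested. In RNA of a whole culture, fewer cells of a kind and less RNA per cell cannot be told apart. Slc11a2 (DMT1), the iron importer of most cells, read 27.2, 35.8 and 37.9, and Slc40a1 (ferroportin), the iron exporter, was dim (3.1, 5.6 and 6.0). Tfrc, the transferrin receptor, read 49.4, 176.5 and 70.1.

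Zinc enters the cytosol through the Slc39 family and leaves it through Slc30. Slc30a9 read 273.1, 124.7 and 125.5, so that OP9 was above both lines with GFP by 2.19-fold and 2.18-fold. Slc39a8 (ZIP8), which also takes up manganese and cadmium, read 22.2, 8.7 and 11.6, and Slc39a9 read 4.4, 9.9 and 8.3. Slc30a4 read 28.3, 47.0 and 59.2. Most others were level: Slc39a7 (804.7, 890.0 and 898.6), Slc39a6 (425.9, 594.2 and 537.6), Slc39a13 (231.1, 265.7 and 243.3) and Slc30a6 (171.0, 217.3 and 191.3) stayed within 1.5-fold, and Slc39a14 (65.7, 78.9 and 51.4) within 2-fold. The zinc-induced gene Mt1, a metallothionein, read 1627.7, 357.2 and 278.2, Mtf1, the zinc-sensing factor, read 7.0, 11.6 and 5.6, and Slc30a1, the zinc exporter of the plasma membrane, read 23.1, 36.9 and 33.0.

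Vitamin and choline carriers had 3 of 9 compared members past 2-fold in some comparison, beside 17.6% of all compared probes. Slc19a2, a thiamine carrier, read 143.2, 75.8 and 194.4, 2.56-fold higher on OP9-DL than on OP9-GFP. Slc19a1, the reduced folate carrier, read 129.3, 245.2 and 207.6, with OP9 the lowest at 1.90-fold below OP9-GFP. Slc23a2, the ascorbate carrier of most tissues, read 105.7, 45.0 and 37.8, so that OP9 was 2.35-fold above OP9-GFP and 2.80-fold above OP9-DL. Slc44a1, a choline carrier, read 63.5, 23.4 and 36.4. Slc5a6, the biotin and pantothenate carrier, read 25.3, 43.0 and 24.8 and stayed within 2-fold.

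Among 12 compared carriers of organic ions, bile acids and drugs, 4 passed 2-fold in some comparison, beside 17.6% of all compared probes. Slc22a18, an imprinted gene of the organic cation family, read 85.0, 16.3 and 57.5, so that OP9-GFP was 5.21-fold below OP9 and 3.53-fold below OP9-DL. Slc22a17, a receptor for lipocalin, read 11.6, 5.4 and 6.4. The 3 carnitine and organic cation carriers that follow each other on chromosome 11 without a protein-coding gene between them had their lowest reading on the OP9-DL array: Slc22a5 (OCTN2) read 24.3, 21.4 and 12.9, Slc22a21 (OCTN3) 33.5, 33.9 and 16.8, and Slc22a4 (OCTN1) 34.8, 24.9 and 16.0. Against OP9 they were 1.88-fold, 1.99-fold and 2.18-fold lower. These genes are close in sequence, and a probe for one may read another, so the 3 readings are uncertain as separate values. Over all kept genes, 18 neighbouring pairs with at most 1 protein-coding gene between them were found in the gene table, 11 with both members compared. Slc16a11 (63.9, 41.9 and 61.0) and Slc16a13 (7.3, 6.7 and 7.7), which also lie side by side, stayed within 2-fold.

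Of 6 compared nucleoside carriers 1 passed 2-fold in some comparison, beside 17.6% of all compared probes. This was Slc29a2 (ENT2), which read 8.2, 21.3 and 16.3. Slc29a1 (ENT1), the equilibrative carrier of most cells, read 946.7, 914.1 and 710.3 and stayed within 1.5-fold, and Slc43a3, a purine nucleobase carrier, read 284.6, 387.3 and 199.5. Between OP9-DL and OP9-GFP 5 of the 6 lay below 0, with a median log2 difference of -0.38. The median was -0.081 over all compared carriers and -0.015 over all compared probes, and a group of 6 is small. In the fatty acid group Slc27a3 read 126.7, 51.7 and 75.0 and Slc27a5 15.4, 8.7 and 6.9, while Slc27a4 (FATP4; 64.9, 65.6 and 62.1) was level. Slc33a1, the acetyl-CoA carrier of the endoplasmic reticulum, read 381.8, 232.5 and 254.6.

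Carriers of chloride, bicarbonate, protons, calcium and magnesium set cell volume, pH and ion levels. None of 7 compared cation-chloride carriers passed 2-fold in any comparison, which 17.6% of all compared probes did. Slc12a2 (NKCC1), which loads cells with chloride, read 108.2, 73.9 and 93.9, and the potassium-chloride carriers Slc12a4 and Slc12a7, which release it, read 210.0, 201.6 and 158.5, and 297.1, 285.5 and 164.6. Of 7 bicarbonate and anion carriers only Slc4a4, a sodium bicarbonate carrier, passed, at 13.4, 26.9 and 17.5. Slc4a2 (AE2), a chloride-bicarbonate exchanger, read 253.2, 254.3 and 133.4, 1.91-fold and 1.90-fold lower on OP9-DL than on the other arrays. Of 9 calcium and magnesium carriers 7 stayed within 1.5-fold and Slc41a3 passed 2-fold, at 149.7, 75.6 and 60.9. Slc9a8, a sodium-proton exchanger, read 19.9, 19.3 and 17.7.

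The scaffold Slc9a3r1 (NHERF1, which joins carriers to ezrin) read 4.4, 22.6 and 9.5, and OP9-GFP was 5.14-fold above OP9 with an OP9 reading below the limit, so the fold is not firm. Ezr, which encodes ezrin, read 324.2, 322.9 and 513.3. The other scaffold, Slc9a3r2, read 12.6, 14.7 and 17.2.

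Carriers of the Golgi and endoplasmic reticulum bring nucleotide sugars to the enzymes that build glycans. Among them is Slc35c1, the GDP-fucose carrier. It read 169.6, 361.2 and 217.3, 2.13-fold higher on OP9-GFP than on OP9. Slc35e4, of unknown substrate, read 161.4, 363.8 and 275.5, and Slc35a5 read 39.6, 19.4 and 22.2. The other 14 of the 17 compared Slc35 members stayed within 2-fold, 13 of them within 1.5-fold. Over all compared probes 17.6% passed 2-fold somewhere and 56.4% stayed within 1.5-fold. Slc35b1 read 1215.1, 1352.7 and 1061.1, and the sialic acid and UDP-galactose carriers Slc35a1 (68.3, 76.3 and 65.8) and Slc35a2 (85.2, 87.5 and 74.8) were level. None of the 17 passed 2-fold between OP9-DL and OP9-GFP, where 2.31% of all compared probes were higher and 2.72% lower.

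By location, 1 of 51 compared members placed inside the cell passed 2-fold between OP9-DL and OP9-GFP (1.96%). Of the plasma membrane members 12 of 113 did (10.6%), the scaffold Slc9a3r1 among them. Between OP9-GFP and OP9 the shares were 17.6% and 12.4%, and between OP9-DL and OP9 13.7% and 10.6%. Over all compared probes 2.31% were higher and 2.72% lower in the first comparison, 4.86% and 6.75% in the second, and 4.31% and 6.91% in the third. One main location a gene is a rough label, and with 1 array a line no test of the difference between these shares can be had.

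**Figure D4:**
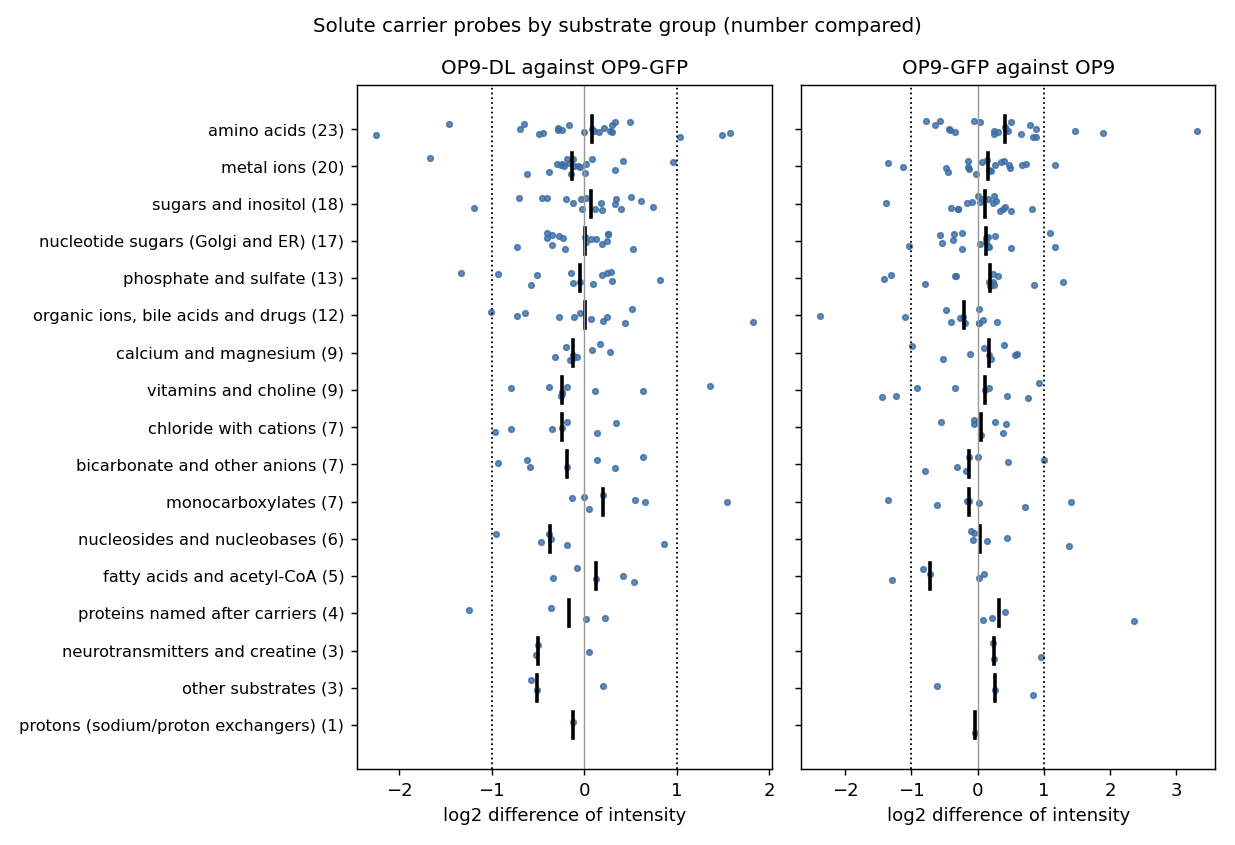
Each point is a compared carrier, placed by its log2 difference in OP9-DL against OP9-GFP (left) and OP9-GFP against OP9 (right), within its substrate group, with the number compared in brackets, the group median as a black bar and 2-fold as dotted lines. Most points lie between the dotted lines, and points are shifted up or down at random within a row for legibility. The widest spread is that of the amino acid carriers (from -2.25 to 1.57 on the left), which are also the largest group. Both ends rest on a reading below 6.13: Slc1a6 read 5.6 in OP9-DL and Slc7a2 read 4.5 in OP9-GFP.

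The remaining groups were small. Slc6a8, the creatine carrier, read 126.0, 149.5 and 105.3 and stayed within 1.5-fold. Slc18a2 (VMAT2), which loads monoamines into vesicles and is known from mast cells among others, read 4.8, 9.3 and 9.6, while the mast cell marker Tpsab1 read 20.6, 9.0 and 818.9. The part of such cells in any carrier's reading was not tested. Slc15a4, a histidine and peptide carrier of lysosomes, read 35.8, 63.6 and 42.6, and Slc17a5 (sialin) 42.9, 28.0 and 32.2. The 57 dim carriers read between 1.1 and 9.4, and the 36 with a blank reached at most 5.9 on the arrays that gave a value, with 6 blank on all 3 arrays. No difference is given for any of them.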

How the data were processed

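RNA of 3 OP9 lines was measured on 1-colour Cy5 arrays, 1 a line. Per the labels' protocols, total RNA was column-purified, amplified as amino allyl RNA, coupled to dye and fragmented by the maker's method. The deposited values are linear probe intensity, which the authors scaled to a median of 20 on each array, as the values show. The scanner, any correction for background and why some cells are blank (6.32% to 6.62% of probes): not given in the sources used here.

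The values were taken as deposited, as log2 without an added constant. A carrier was counted at 2-fold or more, over probes at or above the 25th percentile of mean log2 intensity, beside the same count over all such probes. With 1 array a line, no test was possible. The code was run on simulated data with shifts far above 2-fold, little noise and no limit on dim probes. That run checks the counting only and does not show how reliable a carrier's difference is. Gene symbols came from the platform's annotation, where 16631 probes had 1 symbol, and 3 of the 257 carrier symbols are renamed in RefSeq GRCm38.p6. RefSeq GRCm38.p6 also gave the promoter windows and the order of protein-coding genes for neighbours. Probes have no coordinates here, since no source used names the array's build.

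Members, substrate groups and lists were chosen with earlier results of these data known, and 6 entries of the substrate groups were corrected after the values were seen. Genes were named by a rule: the extremes and all members apart in each comparison, the main carriers of each group and the members past 2-fold of the related lists. Other carriers were added to fill out a group after their values were seen. Alternatives were scaling by quantiles, by the median or by lowess (span 0.3), dropping the limit on dim probes or moving it to the 50th percentile, adding a constant of 2, thresholds of 1.5-fold and 3-fold, the brightest probe per gene, and plasma membrane members only. Leaving out proteins named after carriers was added after the data were seen. Python 3.11.15, numpy 2.4.6, pandas 2.3.3, statsmodels 0.14.6 and matplotlib 3.10.9 were used.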

Additional observations from a re-analysis of the deposited data

How the results depend on the processing

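With 1 array a line, no replicate could be left out, and no setting shows how far cultures of 1 line differ. No paired analysis was possible because each line had a single array. Of 55 carrier differences past 2-fold, 43 stayed past it under quantile, median and lowess scaling and with the added constant. With these settings 0 turned in direction, which the constant cannot do in any case. The limits on dim probes choose which probes are compared and leave each difference as it is, so they could not weaken one. With the limit at the 50th percentile only 31 of the 55 were still compared. The constant took 12 below 2-fold, lowess 5 (Slc3a2 and Slc1a6 in OP9-DL against OP9 among them, at 0.98 and 0.97 on the log2 scale), quantile normalization 3 and median scaling 1. The counts of carriers past the threshold followed the threshold itself. For the comparisons in the order OP9-DL with OP9-GFP, OP9-GFP with OP9, OP9-DL with OP9, the higher counts were 14, 26 and 26 at 1.5-fold and 1, 3 and 4 at 3-fold, and the lower counts 21, 22 and 31, and 2, 1 and 1. At 1.5-fold OP9, OP9-GFP and OP9-DL were above both others in 14, 8 and 6 carriers and below both in 16, 7 and 11, and at 3-fold in 0, 1 and 0, and 1, 1 and 0. Without the limit on dim probes 16 carriers were lower in OP9-DL against OP9, and OP9-DL was below both others in 4. With the limit at the 50th percentile, 3 were lower in OP9-DL against OP9-GFP, 5 higher in OP9-GFP against OP9 and 5 higher in OP9-DL against OP9. OP9 was then below both others in 2, OP9-GFP above both in 0 and below both in 1, and OP9-DL above both in 1 and below both in 1. With the constant of 2, 6 were higher in OP9-DL against OP9, and OP9 was below both others in 3. With plasma membrane members only, 6 were lower in OP9-GFP against OP9 and 3 in OP9-DL against OP9, OP9 was above both others in 1 and OP9-DL below both in 1. Without the proteins named after carriers, OP9-GFP was above both others in 1. Lowess was fitted to each pair of arrays, so it gave no count of lines that stand apart. With 1 probe a carrier, the brightest probe per gene gave the same values.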

Other observations

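Several carriers known mainly from specialised tissues had readings above the array median that were nearly level over the 3 lines. This choice followed the values. Slc32a1, which loads GABA into synaptic vesicles, read 97.8 in OP9, 115.8 in OP9-GFP and 115.7 in OP9-DL. The ileal bile acid carrier Slc10a2 read 63.8, 65.0 and 60.3, and Slc39a5, a zinc carrier of pancreas and gut, read 64.7, 67.9 and 65.8. The carriers Slc17a2 (73.1, 85.7 and 82.9) and Slc5a10 (36.5, 47.8 and 34.8) of the kidney and the melanosomal Slc24a5 (70.1, 103.3 and 94.9) stayed within 1.5-fold. Whether these probes read their own transcript was not tested.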
